A study of Apis mellifera with 138 samples.

Results

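The fat bodies of control worker honey bees (Apis mellifera) from colony R42 were compared with those of control workers from colonies R2 and R3. The libraries were chosen by their labels (fat body, the control oligonucleotide antag-missense) and by a share of at most 0.5% of all counted reads on the 5 bee virus genomes in the files. The limit left 30 of 34 control fat body libraries out of 138 libraries in the series, 10 of 11 from R42, 9 of 11 from R2 and 11 of 12 from R3. Each library came from a single bee. At an age of 3 days each worker was fed 1000 pmol of antag-missense, and it was frozen 48 h later, at 5 days. The queens of all 3 colonies had been inseminated with the sperm of 1 drone each. All bees of a colony belonged to 1 trial, which leaves the colony and its trial as a single factor that cannot be told apart. R42 is 1 colony set against 2, and every P value below measures the spread between bees within these colonies, not between colonies. Other libraries of the series were used for comparison: fat bodies of bees fed antag-305, an antisense oligonucleotide against miR-305 (11 bees from R42, 12 from R2 and 12 from R3), and brains of control bees (10 from R42, 11 from R2 and 11 from R3).

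The fat body is the tissue in which insects store lipid and make most of the proteins of the hemolymph. In honey bees it secretes the yolk and storage protein vitellogenin, hexamerins, immune proteins and carrier proteins, and it responds to juvenile hormone, ecdysteroids and insulin-like peptides. Sisters from a colony headed by a singly inseminated queen share more of their genome than ordinary nestmates, and colonies differ in genotype as well as in food, brood and season.

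The libraries held 6208010 to 17939677 reads on bee genes in R42, 11394483 to 21518367 in R2 and 7809850 to 23427849 in R3. The labelled tissue was checked with Vg, Hex70a, HEX70b, Hex70c, Hex110 and Vhdl. These 6 genes summed to 341 to 10420 CPM in R42, 1146 to 9675 CPM in R2 and 440 to 6329 CPM in R3, against 4.29 to 33.5 CPM in control brains. The check rested mostly on Hex70a, with medians of 2355 CPM in R42, 3284 CPM in R2 and 1717 CPM in R3. The medians of the sum were 2552, 3479 and 2249 CPM. HEX70b had a median of 12.8 CPM in R42 fat bodies and 11.0 CPM in R42 brains. CPM, the usual depth-scaled unit of read counts, was taken over the reads on bee genes, with TMM scaling between libraries. The dissected tissue also held transcripts of other cells. The 8 muscle markers summed to 1766 to 4643 CPM over the 30 libraries, and the 4 venom gland markers ranged from 0.773 to 20780 CPM in R42, 0.487 to 8095 CPM in R2 and 1.37 to 15330 CPM in R3. Of the venom gland markers Apamin and Pla2 had 0 CPM in all 30 libraries, so the sum is that of Melt and Mcdp. The 17 neuron markers summed to 125 to 1130 CPM in R42 with a median of 184, to 156 to 581 CPM in R2 with a median of 228, and to 137 to 1062 CPM in R3 with a median of 214, while control brains had 4359 to 5808 CPM. Not all of them were higher in brain. In R42, R2 and R3 fat bodies nAChRb2 had medians of 45.6, 61.6 and 63.4 CPM, against at most 6.76 CPM in control brains. For nAChRa9 these were 18.4, 30.8 and 48.2 CPM, against at most 3.175 CPM. NLG-4 reached 165 CPM in R42 fat bodies and 105 CPM in R42 brains. Syt1 reached 42.1 CPM in R42 fat bodies and had at least 951 CPM in R42 brains. Whether the sum measures nerve cells was not tested. A sum over 500 CPM was seen in 3 bees of R42, 1 of R2 and 2 of R3. R42 bees 14 and 23 and R3 bee 14 were among them and had the lowest read numbers of the 30 libraries (6208010, 7816472 and 7809850). In these 6 libraries Spearman's rho for the trend of level with gene length was 0.13 to 0.54. It was -0.51 (R2 bee 21) to 0.44 (R3 bee 23) in the other libraries, so the trend does not set the 6 apart. The tested neuron markers had a median span of 116518 bases. The main axis of variation between the 30 libraries (50.6%) had an absolute correlation of 0.98 with the neuron markers. The part of depth was not tested. Of the 15 neuron markers tested, edgeR called 0 between R42 and the other colonies, with 2 at an unadjusted P under 0.05 and 1 called lower by DESeq2. In whole tissue, fewer cells of a type and less RNA per cell cannot be told apart. Neuron markers therefore stand beside the results below, and their part in each was measured only by refitting with them as a covariate or without those 6 libraries.

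**Figure D1:**
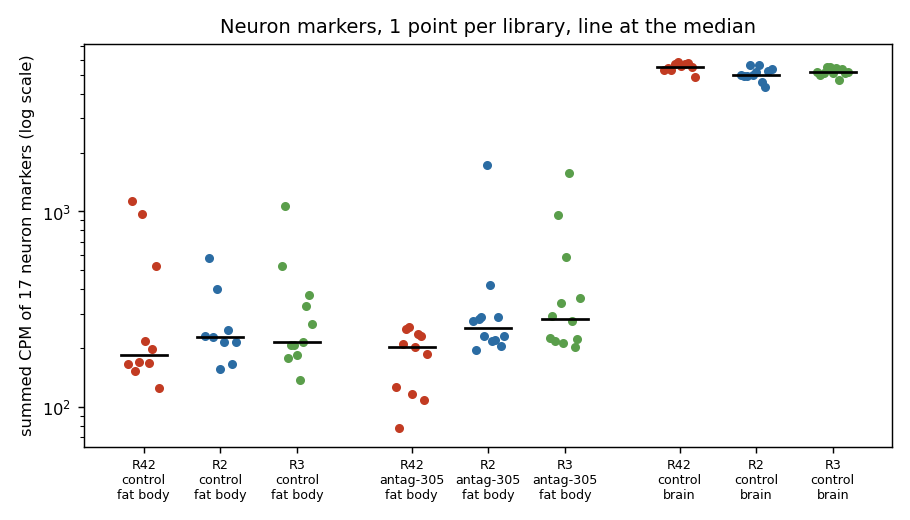
Summed level of 17 neuron marker genes in each library (vertical axis, CPM, log scale) by colony, for control fat bodies, antag-305 fat bodies and control brains, with a line at each median. Among control fat bodies 3 bees of R42, 1 of R2 and 2 of R3 lie above 500 CPM, and among antag-305 fat bodies no bee of R42, 1 of R2 and 3 of R3 do.

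Of 9329 genes tested, 838 differed between R42 and the mean of R2 and R3 (8.98%), 475 of them higher in R42 (5.09%) and 363 lower (3.89%). Calls were made by the quasi-likelihood test of edgeR at a false discovery rate (FDR, the P value adjusted by Benjamini and Hochberg) below 0.05. The median log2 fold change over all tested genes was 0.07. Against each colony alone, within the same fit, R42 differed from R3 in 1711 genes (18.3%) and from R2 in 163 genes (1.75%), and R2 differed from R3 in 203 genes (2.18%). These comparisons share bees and are given side by side only. In 112 genes (1.2%) R42 was called in 1 direction against R2, against R3 and against their mean. Of these 112, 58 were higher in R42 (0.622%), by 0.35 to 2.18 on the log2 scale, and 54 were lower (0.579%), by 0.27 to 4.35. With the neuron markers as a covariate and offsets for gene length, 109 of the 112 were still called in the main comparison and all 112 kept their direction. Without the 6 libraries high in neuron markers, 362 genes were called against both colonies, and 93 of the 112 were among them. Without R42 bee 23, which was 1 of these 6 and had the highest level of the mitochondrial COX2, 91 of the 112 were among 120.

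The spans of genes called higher had a median length of 2914 bases and those of genes called lower 6476, against 4349 for all tested genes. Over all genes tested, Spearman's rho of fold change with length was 0.018 (genes of 1 sample set are not replicates). Offsets that took out each library's own trend of level with gene length gave 180 genes called against both colonies, 95 of them among the 112. The span overlaps a gene on the opposite strand in 21 of the 58 higher genes (36.2%), in 12 of the 54 lower genes (22.2%) and in 3313 of all 9329 tested genes (35.5%). Whether the counting used the strand of the reads is not given in the sources used here, so reads of the overlapping partners cannot be told apart.

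Only 4 genes (0.0429% of those tested) had R42 bees that did not overlap with any bee of R2 or R3. These were Obp19, LOC107966102, LOC724831 and LOC113218590, and each is described with its group below.

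Odorant binding proteins and chemosensory proteins are small secreted carriers of hydrophobic molecules, first known from antennae and also made in other tissues. Obp19 (chromosome 15 of HAv3.1, 1948873 to 1956169) had the smallest P of all genes. It had 207, 284 and 423 CPM (lowest, median and highest bee) in R42, against 618, 831 and 1382 CPM in R2 and 784, 1016 and 1203 CPM in R3. Every R42 bee was below every bee of both other colonies. The fold change on the log2 scale was -1.64 (FDR = 1.5e-09, standard error 0.13), with -1.52 against R2 and -1.75 against R3. In bees fed antag-305 Obp19 again did not overlap, with 249, 325 and 450 CPM in R42, against 686, 1079 and 1326 CPM in R2 and 700.1, 1123 and 1465 CPM in R3 (log2 fold change -1.67). With the neuron covariate and length offsets described below for that set, it was -1.58 there and stayed called. In control brains it reached at most 0.907 CPM and was not tested.

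Obp21 begins 3385 bases after the end of Obp19 and went the other way. It took more reads than Obp19 over a shorter span, with 2652, 3292 and 5419 CPM in R42, against 1703, 2057 and 2399 CPM in R2 and 1935, 2454 and 3212 CPM in R3. All 10 R42 bees lay above the median of the other colonies and 5 above their highest bee. Its log2 difference of 0.66 (standard error 0.10, FDR = 5.9e-05) was called against both colonies. In antag-305 bees the log2 fold change of Obp21 was 0.23 (FDR = 0.11). Obp14, in the same cluster on chromosome 15, was lower in R42 in the main comparison (-1.05, FDR = 0.042), with 345, 1161 and 2324 CPM in R42, against 1437, 2811 and 6780 CPM in R2 and 814, 2374 and 4525 CPM in R3. The 3 colonies overlapped for Obp14, and in antag-305 bees its log2 fold change was -1.39.

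CSP6 (chromosome 1, 25099624 to 25101768) was higher in R42, with 15.9, 38.2 and 64.0 CPM, against 13.2, 22.2 and 39.5 CPM in R2 and 5.65, 8.15 and 11.97 CPM in R3. Here all 3 colonies stood apart: the log2 fold change was 1.56 (standard error 0.18, FDR = 1.7e-06), with 0.87 against R2, 2.25 against R3 and 1.38 for R2 against R3. In antag-305 bees the R42 bees did not overlap with the others, with 23.1, 28.3 and 51.7 CPM in R42, against 12.4, 15.7 and 22.8 CPM in R2 and 6.02, 7.37 and 9.75 CPM in R3. CSP6 was also higher in R42 brains, by 0.66. As a background for this and the following lists, 5.09% of all tested genes were called higher and 3.89% lower, and nothing particular to a list is drawn from its count. In antag-305 fat bodies 2514 of 9146 genes were called higher in R42 and 1717 lower. With the neuron covariate and length offsets these were 285 and 218. The lists were drawn up by gene symbol or by descriptions from the study's tables of differentially expressed genes. Genes listed by description had therefore been called by the study in this series, and a list need not hold a whole family. Of the 20 tested members of the list of odorant binding and chemosensory proteins, 3 were higher in R42 (CSP6, Obp21 and Obp7) and 2 lower (Obp19 and Obp14, the last of which did not pass without R42 bee 23), with a median log2 fold change of -0.06 against 0.07 for all genes. Obp7 had 2.67, 30.9 and 39.7 CPM in R42, against 6.16, 17.5 and 34.5 CPM in R2 and 2.93, 12.4 and 23.02 CPM in R3 (log2 fold change 0.95, FDR = 0.038), and its lowest value over all 30 bees was in an R42 bee. The Obp14 to Obp21 genes are tandem copies, and how reads with several alignments were counted is not given in the sources used here.

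**Figure D2:**
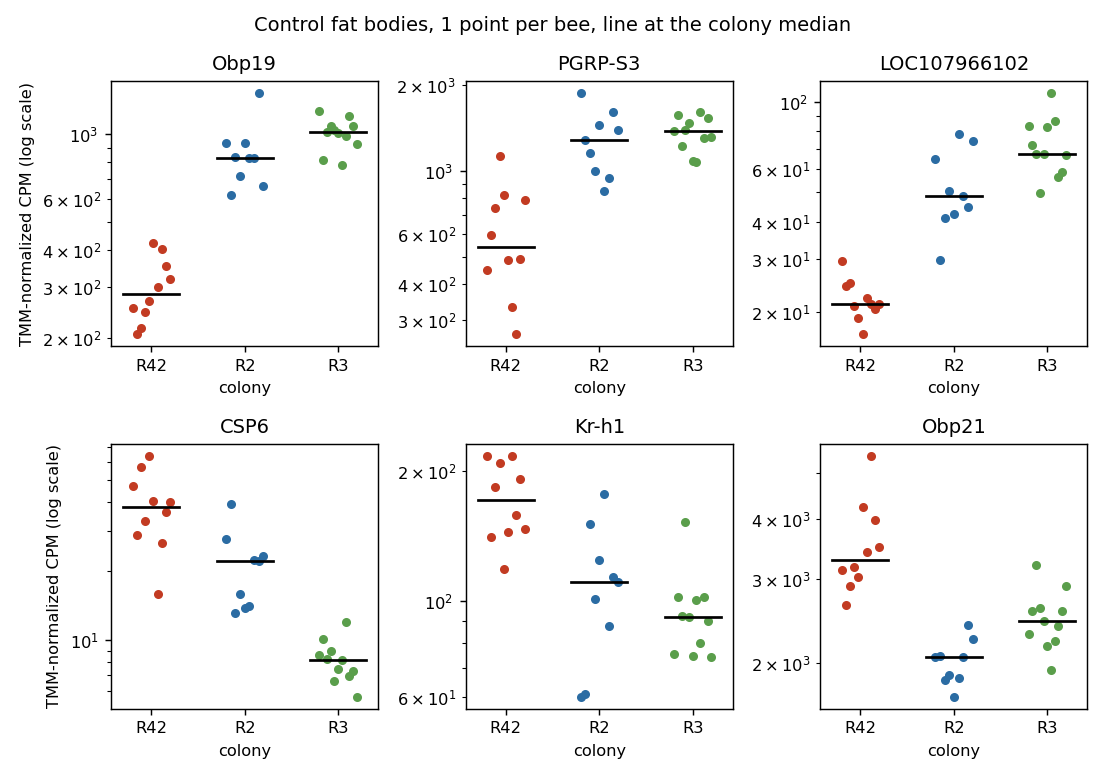
Level of 6 genes in single control fat bodies (vertical axes, TMM-normalized CPM, log scale) by colony, with 1 point for each bee (R42 10, R2 9, R3 11) and a line at the median. R42 bees lie below all others for Obp19 and LOC107966102, lower with 1 overlapping bee for PGRP-S3, and higher with overlap for CSP6, Kr-h1 and Obp21.

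Peptidoglycan recognition proteins bind bacterial cell walls, and several of them act upstream of the Toll and Imd pathways. PGRP-S3 (chromosome 8, 12354564 to 12356480), a short member of the family, had 268, 542 and 1129 CPM in R42, against 850, 1282 and 1872 CPM in R2 and 1071, 1374 and 1602 CPM in R3. It was lower in R42 than in the lowest bee of the other colonies in 9 of 10 bees. The log2 fold change was -1.11 (standard error 0.17, FDR = 2.0e-04), nearly the same against R2 (-1.07) and R3 (-1.15), and it was -1.01 in antag-305 bees. Brains held far less of it, with medians of 4.10 CPM in R42, 14.5 CPM in R2 and 14.3 CPM in R3, a difference that did not pass the test there (-0.85, FDR = 0.17). The membrane-bound PGRP-LC gene LOC408924 was higher in R42 (0.35, FDR = 0.011). It had 109.6, 158 and 222 CPM in R42, against 118, 129 and 152 CPM in R2 and 88.6, 121 and 135 CPM in R3. These 2 were the calls among 6 tested genes for antimicrobial peptides and their relatives. Def1, a defensin, had a log2 fold change of -1.82 (FDR = 0.17), with 1.73 against R2 and -5.37 against R3, so its direction differed between the other colonies. Of the 6 tested members of the Toll, Imd and melanization list 0 passed in edgeR or DESeq2, and 0 had an unadjusted P under 0.05. With the neuron covariate and length offsets 2 of the 6 had an unadjusted P under 0.05 in edgeR, and 0 passed.

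Kr-h1, the transcription factor through which juvenile hormone acts early in its pathway, was higher in R42 in all 3 sets of libraries. It lies on chromosome 6 (16501760 to 16510451). In control fat bodies it had 119, 171 and 217 CPM in R42, against 60.2, 111 and 177 CPM in R2 and 74.5, 92.0 and 152 CPM in R3. All 10 R42 bees were above the median of the other bees and 5 were above the highest of them. The log2 fold change was 0.76 (standard error 0.14, FDR = 0.0014), with 0.66 against R2 and 0.87 against R3. It was 0.65 in antag-305 fat bodies (FDR = 0.0073), where it did not pass with the neuron covariate and length offsets (0.48, FDR = 0.16), and 0.88 in control brains (FDR = 2.8e-05), where medians were 89.2 CPM in R42, 47.1 CPM in R2 and 47.6 CPM in R3. With the neuron covariate and length offsets the value in control fat bodies was 0.96.

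Of the 16 members of the juvenile hormone, ecdysone and insulin list, 2 were higher in R42 (Kr-h1 and E75) and 1 lower (LOC413223), with a median log2 fold change of 0.29. E75 is a nuclear receptor induced by ecdysone. It had 17.6, 65.7 and 134 CPM in R42, against 12.04, 29.8 and 66.5 CPM in R2 and 10.4, 24.1 and 112 CPM in R3 (log2 fold change 1.03, FDR = 0.043), and without R42 bee 23 it was 0.87 and did not pass (FDR = 0.074). In antag-305 bees E75 was lower in R42 (-1.34, FDR = 9.2e-04), where 11 of 15 neuron markers were lower too, and it did not pass there with the neuron covariate and length offsets (-0.40, FDR = 0.12). The difference between the 2 contrasts passed the test (2.38, FDR = 9.9e-04), also with these terms (1.38, FDR = 2.9e-04). LOC413223, the rapamycin-insensitive companion of mTOR, had 4.20, 13.5 and 29.4 CPM in R42, against 8.31, 17.1 and 39.5 CPM in R2 and 6.66, 32.9 and 40.1 CPM in R3 (-0.99, FDR = 0.040). The insulin receptor InR-2 (0.74, FDR = 0.40) and Usp, the partner of the ecdysone receptor (0.20, FDR = 0.67), did not pass. Without the 6 libraries high in neuron markers the median of the list was -0.36, so its sign rested on those bees.

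The genes of secreted storage proteins varied widely between bees of 1 colony. Vg, the vitellogenin gene, ranged from 4.55 to 209 CPM in R42 with a median of 64.0, from 12.7 to 281 CPM in R2 with a median of 101, and from 12.2 to 606 CPM in R3 with a median of 120. Its log2 fold change of -0.91 (standard error 0.55, FDR = 0.30) did not pass the test. Among the 8 members of the list 3 were lower in R42 and none was higher, against 3.89% and 5.09% of all tested genes, with a median of -0.97. In antag-305 bees 2 members were called higher in R42 and 1 lower, against 2514 and 1717 of all 9146 genes, with a median of -0.22. With the neuron covariate and length offsets 0 were called higher there and 1 lower, with a median of -0.69. Hex110, a hexamerin of the kind known as larval storage proteins, had 0.0859, 10.3 and 121 CPM in R42, against 8.85, 67.7 and 941 CPM in R2 and 5.08, 308 and 463 CPM in R3. It was lower in R42 (-2.98, standard error 0.85, FDR = 0.027), and in antag-305 bees it was -2.69 (FDR = 0.0066). Hex70c was weakly expressed, at most 0.864 CPM in R42, against 1.30 CPM in R2 and 8.19 CPM in R3 (-1.75, FDR = 0.037), and did not pass without the 6 libraries high in neuron markers (FDR = 0.055). Tsf1, the iron-binding transferrin, had 3.87, 34.9 and 231 CPM in R42, against 28.2, 111 and 448 CPM in R2 and 49.9, 759 and 8824 CPM in R3. The difference in Tsf1 came with R3, at -4.62 against R3 and -0.87 against R2, where FDR was 0.63. None of the 3 was called against both colonies.

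Of 12 listed transcripts encoded in the mitochondrial genome 2 were higher in R42 control fat bodies and none was lower. They summed to medians of 17450 CPM in R42, 12150 CPM in R2 and 11700 CPM in R3. All mitochondrial genes together took medians of 7.83%, 7.07% and 6.68% of the reads on bee genes, so many of these reads lay outside the list. The median log2 fold change of the 12 was 0.59, or 0.25 without the 6 libraries high in neuron markers, and 11 of the 12 values were positive. COX2, a subunit of cytochrome c oxidase, had 2062, 5574 and 28430 CPM in R42, against 1458, 3312 and 4056 CPM in R2 and 1995, 3221 and 6006 CPM in R3 (1.29, standard error 0.29, FDR = 0.0058). The highest value belonged to R42 bee 23. ND6, a subunit of NADH dehydrogenase, had 38.3, 96.6 and 390 CPM in R42, against 31.0, 51.9 and 85.7 CPM in R2 and 23.4, 51.3 and 109 CPM in R3 (1.18, FDR = 0.011). Both of these stayed called without R42 bee 23, and ND6 did not without the 6 libraries high in neuron markers (0.61, FDR = 0.081). In antag-305 bees the sign was the opposite, with a median of -0.68 over the 12 transcripts and 8 of them called lower in R42. Of all 9146 genes tested there 1717 were called lower. In the same bees 11 of 15 neuron markers were called lower in R42, with a median of -2.81. With the neuron covariate and length offsets 0 of the 12 transcripts were called there, and their median was -0.04.

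Nuclear genes for the respiratory chain were called higher in 7 of 27 cases and lower in none, against 5.09% and 3.89% of all tested genes. Their median on the log2 scale was 0.25, against 0.07 for all genes. CytC, the electron carrier cytochrome c, had 486, 715 and 835 CPM in R42, against 311, 545 and 725 CPM in R2 and 202, 454 and 599 CPM in R3 (0.46, FDR = 0.026). LOC727199, subunit 12 of the NADH dehydrogenase alpha subcomplex, had 198.8, 226.9 and 260.1 CPM in R42, against 152, 177 and 224 CPM in R2 and 139.5, 201 and 223 CPM in R3 (0.26, FDR = 0.018). The other named members were Uqcr11 (0.39) and the ATP synthase subunit LOC726222 (0.40). Without the 6 libraries high in neuron markers 3 of the 27 were called, and without R42 bee 23 there were 5. In antag-305 bees 11 of the 27 were called higher in R42 and 2 lower, against 2514 and 1717 of all 9146 genes, with a median of 0.23. With the neuron covariate and length offsets 0 were called higher there and 1 lower, 8 of the 27 values were positive and the median was -0.06. Of 20 mitochondrial ribosomal protein genes 3 were higher (LOC726731, LOC102656685 and LOC725291, by 0.35, 0.38 and 0.45) and none lower, and without R42 bee 23 LOC726731 alone of these passed. In antag-305 bees 5 of these 20 genes were called higher in R42 and 0 lower, against 2514 and 1717 of all 9146 genes. With the neuron covariate and length offsets 0 of the 20 were called there, 5 values were positive and the median was -0.04.

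All 24 cytosolic ribosomal protein genes on the list had a positive log2 fold change (20 with gene length offsets), as had 5547 of all 9329 tested genes. The 24 values ran from 0.0004 to 0.62, with a median of 0.23, and 4 of the genes passed. These were LOC552494 (60S L37, 0.62), LOC724631 (60S L29, 0.53), LOC725884 (60S acidic P2, 0.51) and LOC552726 (40S S18, 0.39). LOC725884 had 791, 1050 and 3482 CPM in R42, against 874, 993 and 1112 CPM in R2 and 604, 889 and 1133 CPM in R3, and only 5 of 10 R42 bees were above the median of the others. Without R42 bee 23, which held the highest value, 0 of the 24 were called by edgeR, 6 had an unadjusted P under 0.05 and the median was 0.18. With all 30 libraries DESeq2 called 6. The edgeR count was 0 without the 6 libraries high in neuron markers (9 at an unadjusted P under 0.05), 2 with gene length offsets and 5 with these and the neuron covariate. These are short genes, with a median span of 1262 bases. In antag-305 bees 4 of the 24 were called higher in R42 and 0 lower, against 2514 and 1717 of all 9146 genes, with a median of 0.16. With the neuron covariate and length offsets 0 were called there, 9 of the 24 values were positive and the median was -0.03.

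**Figure D3:**
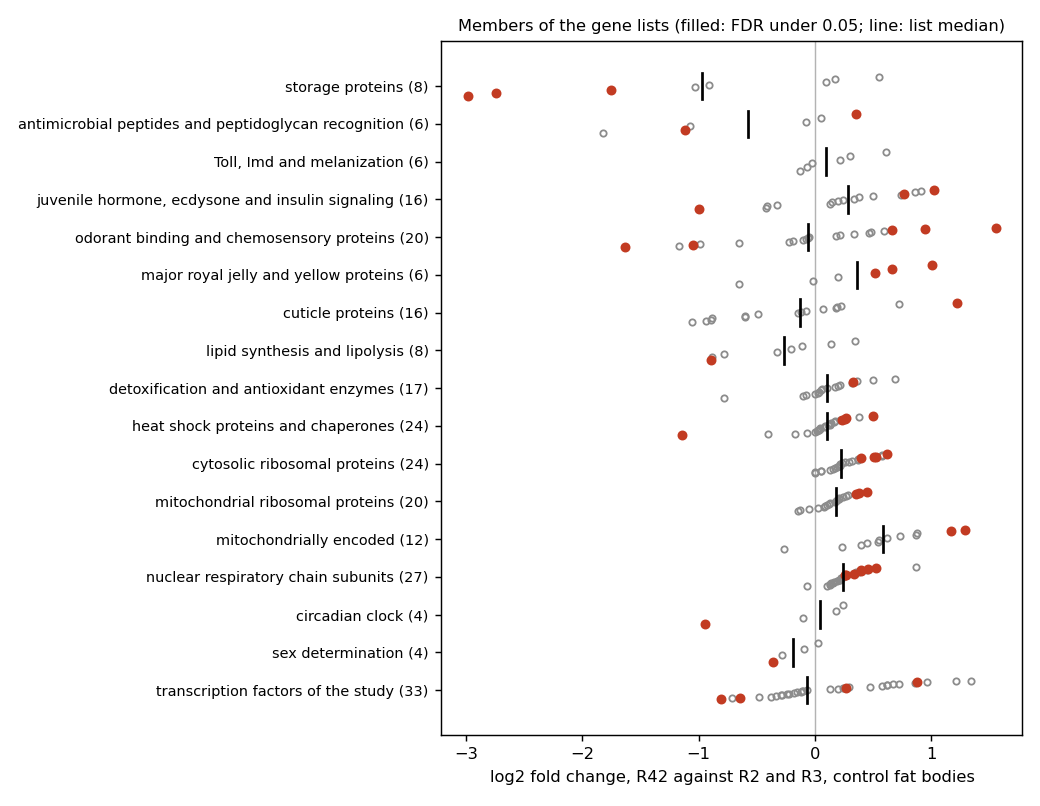
Log2 fold change of R42 against R2 and R3 in control fat bodies (horizontal axis) for the tested members of 17 gene lists, with the number tested in brackets, filled points for FDR under 0.05 and a line at the list's median. The storage proteins spread from -2.98 to 0.55, while the 24 cytosolic ribosomal protein genes all lie above 0 and below 0.63.

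Among the other lists, the major royal jelly and yellow proteins had 3 of 6 tested members higher in R42 and none lower, with a median of 0.36. Mrjp9 had 294, 521 and 697 CPM in R42, against 179, 263 and 368 CPM in R2 and 284, 487 and 646 CPM in R3 (0.52, FDR = 0.016). It stood apart from R2 (0.92) but not from R3 (0.12, FDR = 0.62). Mrjp7 (0.66) and the yellow gene Y-f (1.01) were the other members, and reads of the closely related royal jelly genes may have been split or shared. One of 16 cuticle protein genes was higher, CPR13, at 0.731 to 3.53 CPM in R42, against 0.39 to 1.54 CPM in R2 and 0.153 to 0.903 CPM in R3. Of 24 heat shock proteins and chaperones 4 were higher (5.09% of all tested genes), among them Cdc37 (0.50, FDR = 0.048), a partner of Hsp90, the myosin chaperone unc-45 (LOC412564, 0.26) and LOC413120 (a dnaJ homolog, 0.27). With gene length offsets 1 of the 24 was higher. The Hsp70 gene LOC410620 was lower in R42 with 23.5, 49.9 and 155 CPM, against 66.7, 108 and 247 CPM in R2 and 37.5, 179 and 257 CPM in R3 (-1.14, FDR = 0.012). It was also lower in R42 brains, by 1.06 on the log2 scale. In antag-305 fat bodies 10 of the 24 genes were called higher in R42 and 0 lower, against 2514 and 1717 of all 9146 genes. With the neuron covariate and length offsets 3 were called higher in those fat bodies and 0 lower. There LOC410620 was above the median of the other colonies in 5 of 11 R42 bees. It was above their highest bee in 3 and below their lowest in 3.

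Of 8 genes for lipid synthesis and lipolysis 1 was lower and none higher. This was LOC412541, a long-chain fatty acid CoA ligase that activates fatty acids, with 5.46, 7.20 and 12.9 CPM in R42, against 7.01, 13.4 and 23.3 CPM in R2 and 7.62, 16.04 and 27.9 CPM in R3 (-0.89, FDR = 0.0076). One of 17 detoxification and antioxidant genes passed, the glutaredoxin LOC727309 (0.33, FDR = 0.043), which did not pass without R42 bee 23 (FDR = 0.087). Of 4 clock genes Per was lower in R42, with 21.5, 25.8 and 96.3 CPM, against 20.1, 57.5 and 113 CPM in R2 and 29.9, 89.1 and 147 CPM in R3 (-0.94, FDR = 0.035). Per was called against R3 and not against R2 (FDR = 0.38). The hour at which the bees of each colony were frozen is not given in the sources used here, and its part in this difference was not tested. Of 4 sex determination genes Csd was lower (-0.36, FDR = 0.026), with 13.4 to 21.8 CPM in R42, against 18.9 to 32.5 CPM in R2 and 17.4 to 29.6 CPM in R3, and did not pass with the neuron covariate and length offsets (FDR = 0.26). Csd is known for its many alleles and its close copy Fem, so differences in read alignment between colonies cannot be told apart from differences in level.

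The 35 transcription factors that the study lists were chosen by it on brain libraries of this series. Of the 33 tested here 2 were higher in R42 and 2 lower, against 5.09% and 3.89% of all tested genes, with a median of -0.06. The higher ones were LOC411207, a CCAAT/enhancer-binding protein (0.88, FDR = 0.016), and LOC408853, the X-box-binding protein 1 gene of the unfolded protein response (0.27, FDR = 0.048). LOC411207 had 22.3, 41.2 and 92.5 CPM in R42, against 11.8, 22.5 and 37.2 CPM in R2 and 12.1, 26.98 and 57.5 CPM in R3. The lower ones were LOC725757, a subunit of nuclear transcription factor Y (-0.64, FDR = 0.0047), and LOC412601 (-0.80, FDR = 0.027). None of the 4 was called against both colonies, and without the 6 libraries high in neuron markers 2 of the list were higher and 5 lower.

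Most genes with the largest or clearest differences had no description in the sources used here, so they are given by position and values only. LOC113218590 (chromosome 2, 8161875 to 8162799) was higher in every R42 bee than in any other, with 14.3, 20.6 and 30.0 CPM in R42, against 7.80, 11.1 and 13.9 CPM in R2 and 4.45, 9.59 and 11.6 CPM in R3 (1.11, FDR = 1.8e-06). The groups did not overlap in antag-305 bees either, where R42 had 20.02 to 45.4 CPM, against 5.99 to 19.3 CPM in R2 and 6.36 to 12.2 CPM in R3. LOC724831 (chromosome 5, 267261 to 320977) was lower in every R42 bee, with 19.4, 30.3 and 39.7 CPM in R42, against 45.6, 49.5 and 61.3 CPM in R2 and 40.5, 55.8 and 72.4 CPM in R3 (-0.88, FDR = 2.6e-06). In antag-305 bees its log2 fold change was -0.83, with overlap between the colonies. The non-coding RNA LOC102654625 (chromosome 8, 8485889 to 8499165) had 26.7, 45.1 and 58.4 CPM in R42, against 12.4, 17.5 and 29.8 CPM in R2 and 20.7, 25.3 and 29.9 CPM in R3. All but 1 of the R42 bees were above the highest bee of the other colonies (1.07, FDR = 1.2e-06), and the log2 fold change was 1.07 in antag-305 bees and 0.96 in brains.

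LOC726857 (chromosome 3, 4508125 to 4509684) was a weakly expressed gene with 3.19, 4.96 and 6.06 CPM in R42, against 0.432, 0.992 and 1.81 CPM in R2 and 1.02, 2.02 and 4.24 CPM in R3. It was higher in R42 in control fat bodies (1.70, FDR = 5.9e-06), in antag-305 fat bodies (1.78) and in brains (1.28). LOC410339 (chromosome 11, 12909288 to 12911066) had 109.6, 151 and 214 CPM in R42, against 75.5, 88.9 and 131 CPM in R2 and 60.6, 86.2 and 118 CPM in R3 (0.75, FDR = 5.9e-06). The largest increases among genes called against both colonies were those of LOC102654866 (2.18), LOC413833 (1.88), LOC409096 (1.82), LOC726857, LOC411602 (1.67), LOC412439 (1.59), LOC411675 (1.56), CSP6, LOC102656472 (1.45) and LOC100577676 (1.45). LOC413833 had 24.1, 44.0 and 130 CPM in R42, against 5.92, 23.7 and 34.9 CPM in R2 and 5.70, 11.1 and 24.7 CPM in R3. LOC409096 had 7.78, 16.5 and 28.1 CPM in R42, against 1.89, 4.14 and 9.51 CPM in R2 and 1.86, 2.89 and 13.6 CPM in R3. In antag-305 bees its log2 fold change was 1.63. LOC411602 had 0.727, 10.2 and 13.9 CPM in R42, against 1.30, 2.45 and 3.83 CPM in R2 and 1.02, 2.17 and 7.28 CPM in R3, and 6 R42 bees were above all others while 1 was below all others.

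The largest decreases after LOC107965774, which is described below, were those of LOC724762 (-1.74), Obp19, LOC100577781 (-1.60), LOC413575 (-1.58), LOC100577638 (-1.52), LOC727146 (-1.51), LOC412923 (-1.49), LOC107966102 (-1.48) and LOC102653599 (-1.47). LOC412923 (chromosome 3, 11085536 to 11087595) had 11.8, 26.7 and 48.3 CPM in R42, against 34.0, 74.9 and 134 CPM in R2 and 31.6, 103 and 149 CPM in R3. It was lower in R42 in antag-305 fat bodies (-1.12) and in brains (-1.06) as well. LOC724762 had 0.435, 1.59 and 4.64 CPM in R42, against 4.42, 6.76 and 11.9 CPM in R2 and 2.65, 5.76 and 10.9 CPM in R3, with 8 R42 bees below every other bee. LOC413575 had 11.8, 31.3 and 62.1 CPM in R42, against 45.7, 75.6 and 133 CPM in R2 and 41.7, 69.1 and 177 CPM in R3, with 9 R42 bees below every other bee. The long non-coding RNA LOC102653599 took the most reads of these, with 201, 555 and 1765 CPM in R42, against 861, 2714 and 3479 CPM in R2 and 599, 2012 and 4191 CPM in R3. By the smallest P the lower genes also included LOC100577805 (-1.24, FDR = 1.1e-05) and the non-coding LOC107965926 (-1.03, FDR = 4.8e-05), both on chromosome 6.

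LOC107965774 (chromosome 2, 1865901 to 1895875) was either near 0 or high in single bees. In R42 control fat bodies it had between 1 and 64 reads, or 0.0626 to 10.3 CPM of the bee counts, in all 10 bees. In R2, 4 of 9 bees had 56.4 to 81.4 CPM and the other 5 had 0.512 to 3.02 CPM. In R3, 7 of 11 bees had 58.4 to 104 CPM and the other 4 had 0.0558 to 7.81 CPM. The low bees of R2 and R3 thus overlapped with R42, and the fitted log2 fold change of -4.35 (standard error 1.06, FDR = 0.011) is an average over high and low bees. No bee lay between 10.3 and 29.1 CPM in either tissue.

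The same bees were high or low in both tissues. Both libraries were kept for 65 bees of the series, and at a limit of 20 CPM, chosen after the values were seen, 22 were high in fat body and brain, 43 were low in both, and 0 differed. In R42 all 21 bees, 10 fed antag-missense and 11 fed antag-305, were low in both tissues. In R2 10 of 21 bees were high, and in R3 12 of 23. In the brain the high bees had 29.1 to 48.6 CPM. The log2 fold change was -6.84 in antag-305 fat bodies (FDR = 1.8e-04) and -5.39 in control brains (FDR = 3.5e-04).

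**Figure D4:**
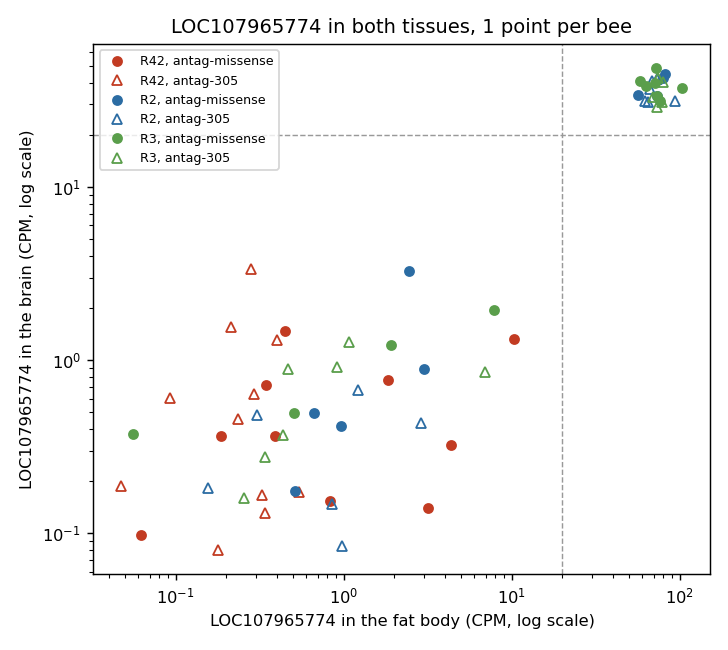
Level of LOC107965774 in the fat body (horizontal axis) and in the brain (vertical axis) of the same bee, as CPM of the bee counts without TMM scaling, on log scales, for 65 bees by colony and treatment, with dashed lines at 20 CPM. The 22 high bees of R2 and R3 form 1 group at the upper right, and the 21 R42 bees lie at the lower left with the other bees of R2 and R3.

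Whether the colony difference also stood in other bees was read from the antag-305 fat bodies, a set of different bees from the same colonies. There 4231 of 9146 genes were called (46.3%). In these bees all R42 libraries were low in neuron markers, at 77.5 to 256 CPM, against 195 to 1724 CPM in R2 and 202 to 1572 CPM in R3, and 11 of 15 tested neuron markers were called lower in R42. Over genes, Spearman's rho of their fold change with span length was -0.54 there. With the neuron covariate and length offsets 503 genes were called (5.5%). Of the 112 genes called against both colonies in control bees, 99 had the same direction in antag-305 bees (88.4%), as did 60% of all genes tested in both sets. Of the 112, 65 were called in the same direction and 3 in the opposite one, while over all 9114 genes tested in both sets 2531 were called in the same direction as the control contrast and 1689 in the opposite one. With the covariate and offsets these numbers were 52 and 0 of the 112, against 420 and 80 of all genes.

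**Figure D5:**
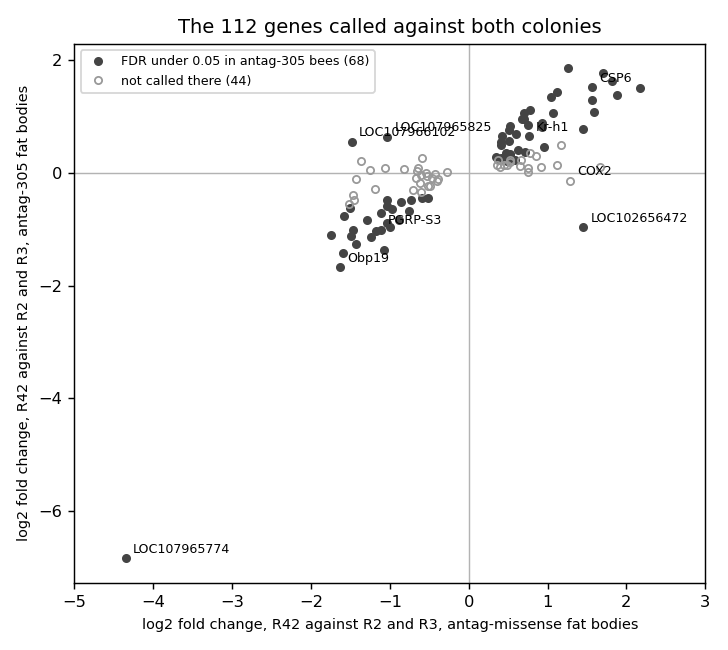
Log2 fold change of R42 against R2 and R3 in antag-missense fat bodies (horizontal axis) and in antag-305 fat bodies (vertical axis) for the 112 genes called against both colonies in antag-missense bees, filled where FDR was under 0.05 in antag-305 bees (68 genes). Most points lie at the lower left and the upper right, and LOC107966102, LOC107965825 and LOC102656472 are the called genes with opposite signs.

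The difference between the 2 colony contrasts was tested in a fit of all fat body libraries, where it passed in 2366 of 9964 genes (23.7%). With the neuron covariate and length offsets it passed in 166 (1.67%). The clearest named case was the non-coding RNA LOC107966102 (chromosome 2, 9967997 to 9971106). In control fat bodies it had 16.9, 21.3 and 29.5 CPM in R42, against 29.8, 48.8 and 78.3 CPM in R2 and 49.7, 67.2 and 107 CPM in R3, with no overlap (-1.48, FDR = 4.6e-08). In antag-305 fat bodies it had 29.6, 43.4 and 118 CPM in R42, against 14.2, 30.8 and 47.9 CPM in R2 and 28.6, 45 and 57.6 CPM in R3 (0.56, FDR = 0.0067). The 2 contrasts differed by -2.03 (FDR = 2.5e-09), and by -1.86 with covariate and offsets (FDR = 6.0e-07), while the higher level in R42 with antag-305 did not pass with them (0.30, FDR = 0.39). LOC107965825 (chromosome 10, 11875014 to 11876360) had 2.75, 6.17 and 8.29 CPM in R42 control fat bodies, against 7.91, 11.6 and 13.8 CPM in R2 and 7.39, 12.3 and 28.6 CPM in R3. With antag-305 the R42 bees had 8.75, 14.0 and 24.4 CPM, against 5.41, 9.22 and 15.5 CPM in R2 and 6.21, 11.9 and 13.8 CPM in R3. Its contrasts of -1.03 and 0.65 differed by -1.68 (FDR = 2.0e-05), and by -1.36 with covariate and offsets (FDR = 2.9e-04), where the value of 0.31 in antag-305 bees did not pass (FDR = 0.34). The non-coding LOC102656472 went the other way (1.45 in control and -0.96 in antag-305 bees), and its value in antag-305 bees did not pass with covariate and offsets either (-0.93, FDR = 0.19), while the difference did (2.27, FDR = 0.0077).

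Control brains came from the same colonies and mostly from the same bees, so they are no second sample of individuals. R42 differed from the mean of R2 and R3 in 707 of 9295 genes in the brain (7.61%). Of the 112 fat body genes 100 were tested in the brain, where 83 had the same direction, 25 were called in it and 1 was called in the opposite direction. Of all 8641 genes tested in both tissues 58.6% had the same direction, 403 were called in it and 213 were called in the opposite direction. The genes called against both colonies in control fat bodies and in the same direction in antag-305 fat bodies and control brains numbered 18. With the neuron covariate and length offsets 17 of them passed in control fat bodies and 15 in antag-305 fat bodies, where Kr-h1, LOC411902 and LOC727313 did not (FDR = 0.16, 0.18 and 0.45). The 9 higher in R42 were Kr-h1, CSP6, LOC724992, LOC726857, LOC412439, LOC413879, LOC411902 (transmembrane protein 205) and the non-coding LOC102654625 and LOC102654866. The 9 lower were LOC107965774, LOC724762, LOC412923, LOC725529, LOC724831, LOC727313 and the non-coding LOC102653599, LOC100577781 and LOC102653949. LOC725529 had 356, 424 and 563 CPM in R42 control fat bodies, against 528, 645 and 898 CPM in R2 and 394, 574 and 848 CPM in R3 (-0.52, FDR = 0.0029), and in brains the log2 fold change was -1.42 with medians of 10.7 CPM in R42, 30.9 CPM in R2 and 22.4 CPM in R3.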

How the data were processed

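RNA-seq libraries of single bees were made by the authors with a stranded mRNA kit, aligned to the HAv3.1 genome with STAR 2.7.6a and counted with featureCounts of Subread 2.0.0. Each deposited file gives the counts of 1 library on 12332 bee genes (whole spans, introns included) and 5 virus genomes. The viral share was computed from all counts, and tests used bee genes only. Of the spans, 12262 matched a gene of the reference annotation (Amel_HAv3.1) by position, and 783 genes had a description, from tables of the study's differentially expressed genes. The labels give 4 µl as the volume fed, and the methods another volume. No 2 libraries of a colony were alike within counting error (lowest chi-square per degree of freedom 38.5 among 136 pairs).

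The tests were run in edgeR 4.0.16 under R 4.3.3. A gene entered if it exceeded 1 CPM in 9 or more of the 30 libraries. After TMM normalization the legacy quasi-likelihood test was used, with 1 mean for each colony and the contrast of R42 minus the mean of R2 and R3. A standard error is the fold change divided by the square root of F. Log2 CPM used a prior count of 2. In simulated data with 200 genes changed by 0.6 or 1 on the log2 scale, 95 and 134 were recovered among 99 and 138 calls over 9329 genes. All FDR values in the text come from edgeR with Benjamini-Hochberg adjustment.

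The members and gene lists were chosen with earlier results of these data known, so no list is independent support for its direction. Genes were named by rule: the 10 higher and 10 lower with the largest change and, in each direction, the 5 of smallest P, all among genes called against both colonies, up to 4 called members of each list, and Vg, Kr-h1, Usp and InR-2. Obp14, Def1, LOC107965825 and the genes called in all 3 sets were chosen after their values were seen. Alternatives were DESeq2 1.42.0, its size factors, other filters, edgeR's newer and robust methods, pooled or single reference colonies, all fat body libraries, the libraries with high viral share, and the bee number as a block. Chosen after the data were seen were a covariate (mean log2 CPM of neuron markers), offsets from a loess curve of level on gene length (span 0.5), leaving out the 6 libraries over 500 CPM of neuron markers, leaving out R42 bee 23, and the bees of the block fit without the block.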

Additional observations from a re-analysis of the deposited data

Results flagged for a closer look

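In 136 groups of 9 or 10 bees (68 named genes in R42 and R2), 4 had a bee set apart from the others by Dixon's criterion on log2 CPM, and chance alone sets apart about 1 group in 20. These were Obp7 in R42 bee 20 (gap of 0.780 of the range, lowest, 2.67 CPM), LOC100577781 in R2 bee 17 (0.574, lowest, 68.6 CPM), Y-f in R42 bee 19 (0.484, highest, 121 CPM) and LOC725884 in R42 bee 23 (0.480, highest, 3482 CPM). R2 bee 17 was 1 of the 6 libraries high in neuron markers, and so was R42 bee 23. Their part in these values was not tested beyond the refits given in the text.

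The colony contrast differed between antag-missense and antag-305 fat bodies, by the test of the difference itself in edgeR, for 17 of the 68 named genes. This share is near that of all genes (2366 of 9964, 23.7%), so nothing particular to the named genes follows from it. The contrast was higher in antag-missense bees by 2.72 for InR-2, 2.43 for LOC102656472, 2.38 for E75, 1.87 for ND6, 1.59 for LOC411602, 1.41 for COX2, 1.22 for LOC411207, 1.12 for Usp, 0.44 for LOC726731, 0.43 for Obp21 and 0.38 for Uqcr11 on the log2 scale. It was lower there, with differences of -2.53 for Tsf1, -2.03 for LOC107966102, -1.38 for Per, -0.86 for LOC727146, -0.75 for LOC412541 and -0.56 for LOC725757. InR-2 and Usp had passed the colony test in antag-305 bees alone, with log2 fold changes of -1.97 and -0.89, and with the neuron covariate and length offsets they had 0.34 (FDR = 0.52) and 0.15 (FDR = 0.39) there. With these terms in the fit of the difference, 5 of the 17 passed: E75 (1.38), LOC107966102 (-1.86), LOC102656472 (2.27), LOC411207 (1.19) and LOC726731 (0.45). InR-2 was then at -0.25 (FDR = 0.81) and Usp near 0 (FDR = 1.00). The highest neuron marker sums were 1130 CPM in R42, 581 in R2 and 1062 in R3 with antag-missense, and 256 in R42, 1724 in R2 and 1572 in R3 with antag-305, and their part was measured only by this refit.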

How the results depend on the processing

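The count of 838 genes was within 1.5 times under DESeq2's size factors, at least 10 counts in every library, edgeR's newer and robust methods, R2 and R3 pooled, all fat body libraries, gene length offsets, and without R42 bee 23 (803 to 1186). It moved to 459 with no filter (204 higher and 255 lower, from 11653 genes tested), 1318 by DESeq2's test, 1349 against R3 alone, 87 against R2 alone, 1385 with the libraries of high viral share, 1665 with the neuron covariate, 1840 with covariate and length offsets, and 1561 without the 6 libraries high in neuron markers. The 112 genes called against both colonies became 62 with no filter, 206 by DESeq2's test, 200 with the libraries of high viral share, 259 with the neuron covariate, 180 with length offsets, 382 with both and 362 without the 6 libraries. With covariate and offsets, R42 against R2 gave 551 calls, R42 against R3 2810, R2 against R3 582, the antag-305 comparison 503, and the difference between the contrasts of antag-missense and antag-305 bees 166. Without R42 bee 23 the 2 counts were 1186 and 120. With the bee number as a replicate block the counts were 190 and 13 over the 26 bees whose number occurs in 2 or more colonies, and 536 and 58 in the same bees without the block. Correlations of the deviations in the 22 same-numbered pairs ran from -0.65 to 0.87, and 11 of them were over 0.1. No common sign was seen, and whether the numbers mark bees handled together was not tested. None of the 65 called named genes changed direction in any alternative in which it was tested, and 19 were called in each one in which they were tested. Against R2 alone 42 of these 65 genes lost the call, and 23 without a filter. The cause of these moves was not tested. Counting error was small beside the spread between bees, while R42 is a single colony.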

Other observations

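Within 50000 bases of each other there were 8 neighboring pairs among the 112 genes, and 5 pairs had the same direction. Over all tested genes 8937 neighboring pairs lay within that distance and 4805 of them (53.8%) had the same direction, so nothing is read from the share in the 8 pairs. LOC413574 and LOC413575 on chromosome 1 lie 884 bases apart and were both lower in R42 (-1.08 and -1.58), as were LOC725593 and LOC100577805 on chromosome 6 (5455 bases apart, -0.99 and -1.24) and LOC725529 and LOC724831 on chromosome 5 (3460 bases apart, -0.52 and -0.88). LOC100576885 and CSP6 on chromosome 1 were both higher (0.75 and 1.56). Obp19 and Obp21 went in opposite directions, and so did LOC411602 (1.67) and LOC410301 (-0.38) on chromosome 11.

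Long non-coding RNAs made up 10 of the 112 genes, 5 higher and 5 lower, and 724 of the 9329 tested. Among described genes called against both colonies, LOC724295, a regulatory subunit of protein phosphatase 1 of the kind that directs it to glycogen, was lower in R42 (-1.43, FDR = 0.0015), and so were LOC550687, a mitochondrial aldehyde dehydrogenase (-0.61), and LOC724861, the transcription factor Maf (-0.82). Higher in R42 were LOC102653764, described as waprin-Thr1 (0.71), and Cbs, the cystathionine beta-synthase gene of the transsulfuration pathway (0.60, FDR = 0.0016), which was also higher in antag-305 bees (0.69), though not with the neuron covariate and length offsets (0.23, FDR = 0.22). Of the markers of other cells, aub of the ovary list was lower in R42 (-0.64, FDR = 0.039), with the 3 ovary markers at 30.6 to 69.3 CPM in R42, against 32.7 to 83.2 CPM in R2 and 30.8 to 74.3 CPM in R3. Of these 3 markers 1 had a positive log2 fold change (0.08). Their sum was higher in control brains, at 126 to 176 CPM. There aub had medians of 51.5 CPM in R42, 59.1 CPM in R2 and 49.3 CPM in R3, so nothing about the ovary is read from it. Of 2 venom gland markers tested 0 passed in edgeR or DESeq2 and 0 had an unadjusted P under 0.05, while their summed medians were 2117 CPM in R42, 21.04 CPM in R2 and 50.6 CPM in R3.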
